A study of Homo sapiens with 9 samples.

Results

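The 10 genes described here govern the commitment of a cell to DNA replication: the D-type cyclins CCND1, CCND2 and CCND3, the cyclin-dependent kinases CDK4 and CDK6, the kinase inhibitors CDKN1A, CDKN1B, CDKN2A and CDKN2B, and the retinoblastoma gene RB1. They were chosen by name for their place in the pathway, and their identifiers were looked up in the expression files. Of the 10 genes, 9 had an identifier among the 36753 in the files, and 7 were among the 16135 genes tested, which had at least 1 FPKM (fragments per kilobase of transcript, scaled to the mapped fragments of the library) in at least 3 libraries. CDKN2B had no identifier in the files, CDKN2A had reads in 1 library only, and CCND2 was read in every library but lay under that minimum.

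The 9 libraries came from PANC-1, an established human pancreatic carcinoma cell line. The cells were harvested 48 h after transfection with a control or with short interfering RNA (siRNA) against SIRT6 (siSIRT6), a NAD-dependent deacylase of histones and other proteins, or against KDM5C (siKDM5C), a demethylase of histone H3 lysine 4. Each group had 3 libraries, all 3 groups were transfected, and neither siRNA sequences nor the number of siRNAs per target are stated. Whether replicates are separate cultures is not labelled, and each p-value therefore reflects only the spread between these libraries, which may be technical.

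In the usual scheme, D cyclins bind and activate CDK4 and CDK6, which phosphorylate the RB1 protein and so release E2F transcription factors to switch on S-phase genes. The INK4 proteins p16 (CDKN2A) and p15 (CDKN2B) bind CDK4 and CDK6 and block them, whereas p21 (CDKN1A) and p27 (CDKN1B) bind cyclin-kinase complexes, inhibit CDK2 and help assemble D cyclins with their kinases. Pancreatic carcinoma commonly loses CDKN2A, and PANC-1 is known for a homozygous deletion of that gene.

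Library totals implied by the smallest step of the FPKM values ran from 18201413 to 26910441 reads, with the highest in siSIRT6 replicate 3 and siKDM5C replicate 3. SIRT6 was at 9.66% of the control mean in siSIRT6 cells and KDM5C at 19.6% in siKDM5C cells. Of 7 epithelial and pancreatic carcinoma markers, KRT8, KRT18 and KRT19 lay between 138 and 619 FPKM in every library. VIM, the vimentin gene on the same list, lay between 538 and 938 FPKM. KRT7 lay between 3.11 and 7.13 FPKM and EPCAM between 0.841 and 3.52, while the epithelial cadherin CDH1 stayed under 1 FPKM throughout. Of 5 leukocyte markers, 4 had an identifier and only CD68 reached 1 FPKM, with summed levels of 40.6 to 54.7 FPKM in control, 34.0 to 37.1 in siSIRT6 and 70.2 to 91.3 in siKDM5C cells, while PTPRC did not exceed 0.012 FPKM. Endothelial markers summed to at most 0.0757 FPKM, and of the 4 fibroblast markers only COL1A1 exceeded 1 FPKM. The fibroblast markers summed to 15.6 to 16.6 FPKM in control, 40.9 to 42.9 in siSIRT6 and 14.96 to 16.96 in siKDM5C libraries, while DCN and PDGFRB stayed near 0. LUM stayed under 1 FPKM, with 3 to 5 reads in control, 11 to 20 in siSIRT6 and 0 to 2 in siKDM5C libraries. The part of the COL1A1 and LUM rise in the siSIRT6 results was not tested. Reads on mitochondrial genes made up 8.06% to 9.76% of reads in control, 6.49% to 6.87% in siSIRT6 and 5.64% to 6.58% in siKDM5C libraries, and the part of this shift in the results below was not tested.

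After siSIRT6, 5 of the 7 tested members fell and none rose, and over all tested genes 50.8% were called in either direction and 26.9% were lower. After siKDM5C, 3 of the 7 fell and 1 rose, against 51.5% called in either direction, 25.9% lower and 25.6% higher over all tested genes. The siSIRT6 and siKDM5C cells differed for 3 of the 7, against 39.9% of all tested genes. The median difference of the 7 from control was -0.45 on the log2(FPKM + 1) scale after siSIRT6, beside -0.05 for all tested genes, and -0.15 after siKDM5C, beside -0.02. Libraries of the groups did not overlap for 5 of the 7 between siSIRT6 and control (65.5% of all tested genes), for 6 of the 7 between siKDM5C and control (55.7%), and for 3 of the 7 between the knockdowns (51.7%). The 2 knockdown comparisons share the 3 control libraries. Because these are bulk samples, fewer cells expressing a gene and less RNA per cell cannot be told apart.

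**Figure D1:**
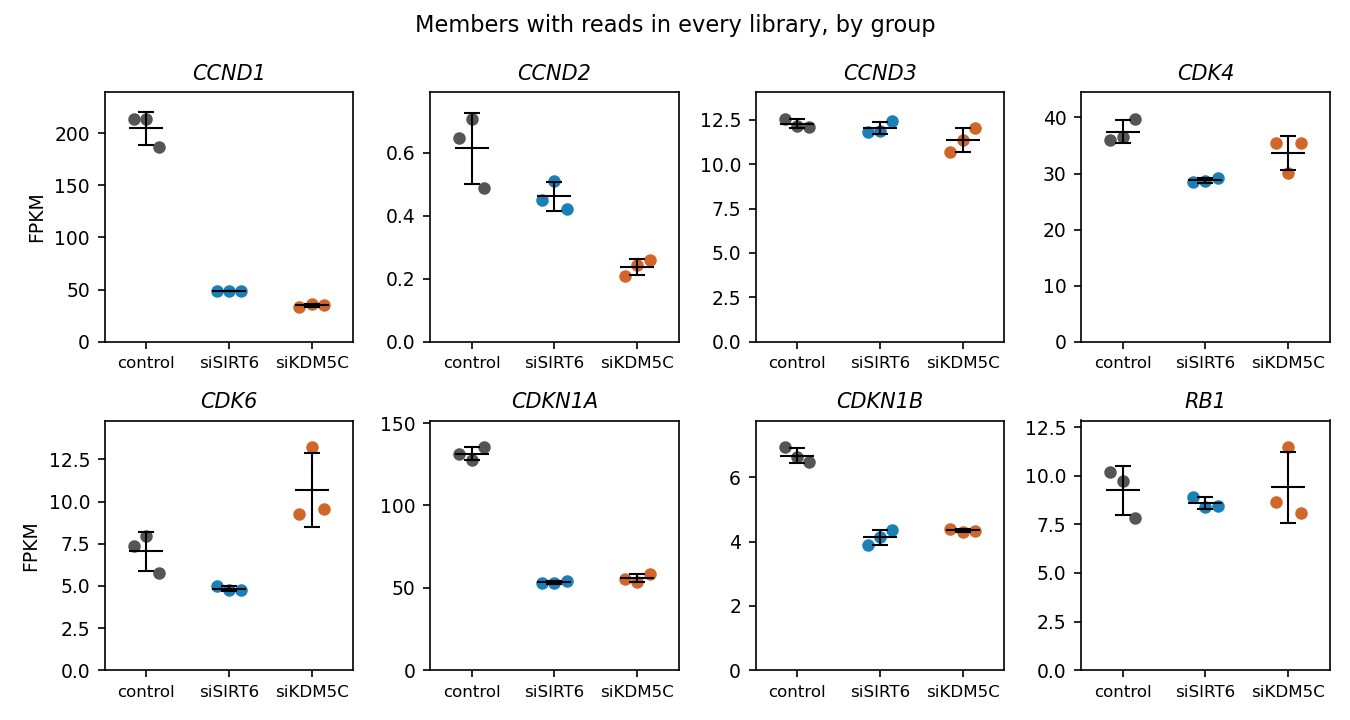
FPKM of the 8 members with reads in every library, 1 panel per gene with its own axis from 0. Points are libraries, and bars are the mean and SD of 3 libraries. CCND1, CDKN1A and CDKN1B are lower in every knockdown library than in any control library, and CDK6 lies on opposite sides of control in the 2 knockdowns.

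CCND1 was by far the most abundant D cyclin and fell the most of the tested members. Its level was 213.8, 213.2 and 186.6 FPKM in the control libraries, 48.9, 48.5 and 48.8 in siSIRT6, and 33.5, 36.0 and 35.0 in siKDM5C. All 6 knockdown libraries lay below all 3 controls, and the siKDM5C libraries lay below the siSIRT6 libraries. The control mean of 205 ± 15.5 FPKM (SD, n = 3), higher than in 98.9% of tested genes, became 48.7 ± 0.187 (SD, n = 3) after siSIRT6 and 34.8 ± 1.25 (SD, n = 3) after siKDM5C, or 23.8% and 17.0% of control. The log2 difference was -2.04 with a 95% interval of -2.19 to -1.90 after siSIRT6 (limma adjusted p = 2.78e-07) and -2.52 with an interval of -2.66 to -2.38 after siKDM5C (limma adjusted p = 6.34e-08). Only 2.14% of tested genes were called lower by at least 1 log2 unit after siSIRT6, and 2.03% after siKDM5C. The level was higher in siSIRT6 than in siKDM5C cells by 0.47 log2 units (95% interval 0.33 to 0.61, limma adjusted p = 0.000543). The siSIRT6 values varied less between libraries than the control values did, and control replicate 3 was the lowest control.

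CCND1 lies at chr11:69641087-69654474 on the plus strand (GRCh38, GENCODE 29), and its neighbour LTO1, which encodes a maturation factor of the ABCE1 protein, lies on the opposite strand at chr11:69653076-69675416 and shares 497 exon bases with it, or 10.3% of the exon bases of CCND1. LTO1 had 27.3, 26.6 and 26.6 FPKM in control, 7.55, 7.48 and 7.36 in siSIRT6, and 7.10, 6.13 and 6.54 in siKDM5C cells. It fell with CCND1, by -1.72 log2 units after siSIRT6 (limma adjusted p = 3.06e-07) and -1.88 after siKDM5C (limma adjusted p = 1.33e-07), and its libraries did not overlap between knockdown and control. The library kit was stranded, but the strand setting of the counting is unstated, so reads of the shared exon bases cannot be assigned to one gene. The FPKM of LTO1 equalled 12.5% to 14.3% of the FPKM of CCND1 in control libraries, 15.1% to 15.4% in siSIRT6 and 17.0% to 21.2% in siKDM5C libraries. Of 10 genes listed around CCND1 in 11q13, 6 were tested, and after siSIRT6 3 rose and 3 fell, while after siKDM5C 3 rose, 2 fell and 1 did not pass, against 50.8% and 51.5% of all tested genes called in either direction. CTTN, the cortactin gene of the actin cytoskeleton, rose from 14.7 ± 1.65 to 31.2 ± 3.88 FPKM (SD, n = 3 each) after siSIRT6 and to 28.4 ± 4.81 (SD, n = 3) after siKDM5C. FADD, the adaptor of death receptors, rose from 28.9 FPKM to 35.3 and 38.1. PPFIA1, a liprin that anchors adhesion sites, fell from 6.77 FPKM to 4.41 and 5.37.

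**Figure D2:**
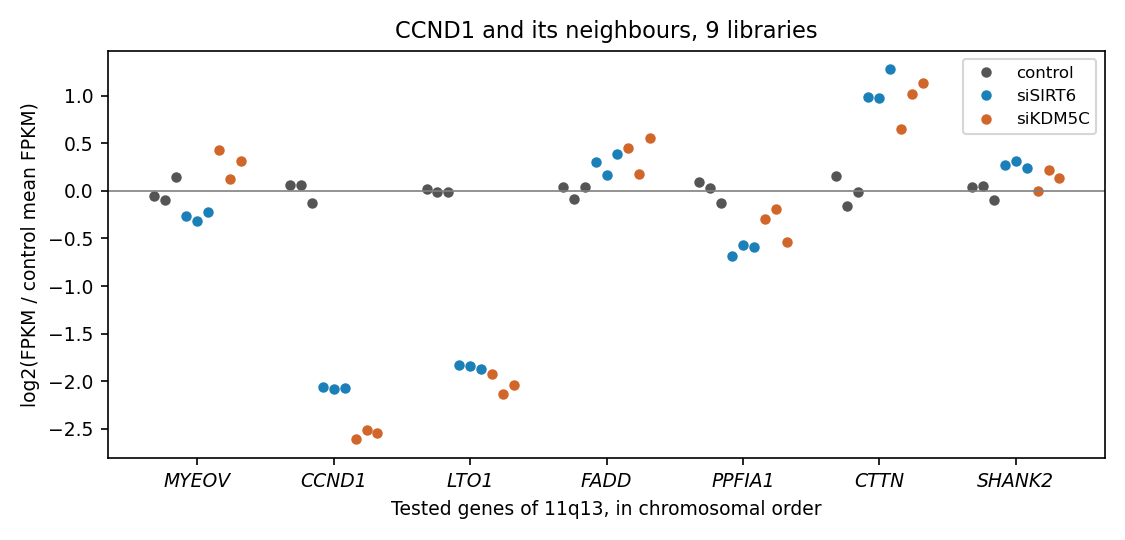
The log2 ratio of each library's FPKM to the control mean for CCND1 and 6 tested neighbours in chromosomal order, with 9 libraries per gene. CCND1 and LTO1 lie far below control in all 6 knockdown libraries, and CCND1 lies lowest in siKDM5C. CTTN lies above control in all 6, and MYEOV lies below control only in siSIRT6 cells.

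CCND2, another D cyclin, was expressed far below CCND1 and CCND3. Its values were 0.647, 0.709 and 0.490 FPKM in control, 0.452, 0.512 and 0.423 in siSIRT6, and 0.210, 0.244 and 0.258 in siKDM5C libraries, from 32 to 108 reads per library. The siKDM5C libraries lay below all control libraries, whereas the siSIRT6 and control libraries overlapped. In a fit of all 36753 genes without a minimum it was lower by -0.38 log2 units after siKDM5C (limma adjusted p = 0.00274) and by -0.14 after siSIRT6 (limma adjusted p = 0.144). A fit on reads recovered from the FPKM values, chosen after the data were seen because CCND2 misses the minimum, gave -1.35 log2 units after siKDM5C (limma adjusted p = 9.57e-05) and -0.41 after siSIRT6 (limma adjusted p = 0.0517). Differences on the log2(FPKM + 1) scale understate changes at such low levels. The difference between the knockdowns in that fit was 0.94 log2 units (limma adjusted p = 0.0023). A read-through gene on the same strand, AC008012.1, shares 989 exon bases with CCND2, or 13.8% of its exon bases, and had mean levels of 7.23, 6.39 and 5.34 FPKM in control, siSIRT6 and siKDM5C cells. Reads of the shared bases could be divided between the 2 genes by the counting.

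CCND3, the D cyclin best known from blood cells, did not pass the test in any comparison. It read 12.6, 12.2 and 12.1 FPKM in control, 11.8, 11.9 and 12.4 in siSIRT6, and 10.7, 11.4 and 12.05 in siKDM5C libraries. The siSIRT6 values overlapped control, and the siKDM5C values lay just below it. The differences from control were -0.03 log2 units (95% interval -0.15 to 0.09, limma adjusted p = 0.705) after siSIRT6 and -0.10 (95% interval -0.23 to 0.02, limma adjusted p = 0.128) after siKDM5C. Leaving out siKDM5C replicate 3 brought the second difference to -0.14 with a limma adjusted p of 0.0377.

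The make-up of the D cyclins differed between the groups in FPKM. The 3 genes summed to 217 ± 15.8 FPKM (SD, n = 3) in control cells, to 61.2 ± 0.355 after siSIRT6 and to 46.4 ± 1.75 after siKDM5C. CCND1 made up 94.0% ± 0.332 of the sum in control cells, 79.6% ± 0.386 after siSIRT6 and 75.0% ± 0.894 after siKDM5C (SD, n = 3 each). CCND3 was 5.67% of it in control cells, 19.7% after siSIRT6 and 24.5% after siKDM5C. These shares are descriptions of the FPKM values and say nothing of protein.

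CDK4 was the more abundant kinase and was lower after siSIRT6. Its libraries read 36.1, 36.6 and 39.8 FPKM in control, 28.4, 28.7 and 29.2 in siSIRT6, and 35.4, 30.1 and 35.4 in siKDM5C. All siSIRT6 values lay below all control values, and all siKDM5C values also lay below the lowest control value, 2 of them narrowly. The log2 difference was -0.37 after siSIRT6 (95% interval -0.53 to -0.21, limma adjusted p = 0.00278), or 76.8% of control, and -0.15 after siKDM5C (95% interval -0.32 to 0.01, limma adjusted p = 0.103), which did not pass. The siSIRT6 level was lower than the siKDM5C level by -0.21 log2 units (95% interval -0.38 to -0.05, limma adjusted p = 0.0411), and this call was lost in 10 of 20 other settings. Leaving out control replicate 1 or 2, siKDM5C replicate 1 or 3, or any siSIRT6 replicate ended it. TSPAN31, a tetraspanin gene on the opposite strand, shares 1369 exon bases with CDK4, or 43.2% of the exon bases of CDK4. As for CCND1, the strand setting of the counting is unstated, so reads of these shared bases cannot be assigned to one gene. TSPAN31 read 10.9 FPKM in control, 8.97 in siSIRT6 (log2 difference -0.25, limma adjusted p = 0.00874) and 9.63 in siKDM5C cells (log2 difference -0.16, limma adjusted p = 0.0565).

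CDK6 went in opposite directions in the 2 knockdowns. Its libraries read 7.38, 7.98 and 5.77 FPKM in control, 5.02, 4.74 and 4.74 in siSIRT6, and 9.28, 13.2 and 9.57 in siKDM5C. All siSIRT6 libraries lay below, and all siKDM5C libraries above, all control libraries, although control replicate 3 was close to the siSIRT6 values and siKDM5C replicate 2 stood above its fellows. The level fell to 68.6% of control after siSIRT6 (log2 difference -0.45, 95% interval -0.77 to -0.14, limma adjusted p = 0.0245) and rose to 152% after siKDM5C (log2 difference 0.53, 95% interval 0.22 to 0.85, limma adjusted p = 0.0121). That fall did not pass when control replicate 1 was left out (limma adjusted p = 0.0728), nor without control replicate 2 (0.0833), siSIRT6 replicate 1 (0.0501), 2 (0.0657) or 3 (0.0659), nor with no filter on low values (0.0597). The siKDM5C call held in all 20 other settings, with differences from 0.38 to 0.62 log2 units. The difference between the 2 knockdowns was -0.99 log2 units (95% interval -1.31 to -0.67, limma adjusted p = 0.000801), where 21.3% of tested genes were called lower in siSIRT6 cells. The same 2 libraries, control replicate 3 and siKDM5C replicate 2, also stood apart for RB1. Against the group mean, CDK6 was at -0.24 and 0.30 log2 units in them and RB1 at -0.21 and 0.28, while the 2688 tested genes of at least 8000 bases had medians of -0.05 and 0.05, and the part of this in the results was not tested.

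**Figure D3:**
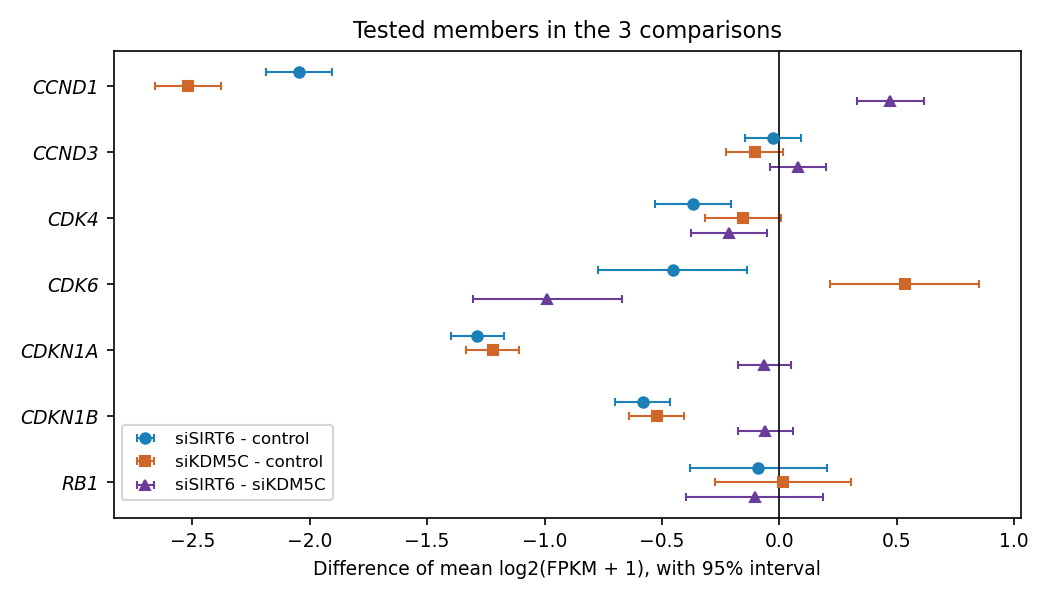
Differences of mean log2(FPKM + 1) for the 7 tested members in 3 comparisons, with 95% limma intervals from the 9 libraries. CCND1 lies farthest below 0 in both knockdowns, CDK6 changes side, and the intervals of CCND3 and RB1 cross 0.

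CDK4 and CDK6 together came to 44.5 ± 1.05 FPKM in control, 33.6 ± 0.300 in siSIRT6 and 44.3 ± 0.876 in siKDM5C cells (SD, n = 3 each). CDK6 was 15.9% ± 2.80 of that sum in control, 14.4% ± 0.545 in siSIRT6 and 24.2% ± 5.48 in siKDM5C cells (SD, n = 3 each). The ratio of summed D cyclin to summed kinase FPKM was 4.89 ± 0.455 in control, 1.82 ± 0.00679 in siSIRT6 and 1.05 ± 0.0526 in siKDM5C cells (SD, n = 3 each).

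CDKN1A, which encodes p21, was an abundant transcript and fell in both knockdowns. It read 131, 127 and 135 FPKM in control, 52.9, 52.8 and 54.1 in siSIRT6, and 55.5, 53.5 and 58.3 in siKDM5C libraries. All 6 knockdown libraries lay far below all 3 controls, and the 2 knockdown groups overlapped. The log2 difference was -1.29 after siSIRT6 (95% interval -1.40 to -1.17, limma adjusted p = 5.66e-07) and -1.22 after siKDM5C (95% interval -1.33 to -1.11, limma adjusted p = 6.97e-07), 40.6% and 42.5% of control. Between the knockdowns the difference was -0.06 log2 units with a 95% interval of -0.18 to 0.05 (limma adjusted p = 0.333).

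CDKN1B, which encodes p27, also fell in both knockdowns. It read 6.94, 6.63 and 6.47 FPKM in control, 3.90, 4.14 and 4.35 in siSIRT6, and 4.39, 4.32 and 4.35 in siKDM5C libraries. Both knockdown groups lay wholly below control and overlapped each other. The log2 difference was -0.58 after siSIRT6 (95% interval -0.70 to -0.47, limma adjusted p = 3.77e-05) and -0.52 after siKDM5C (95% interval -0.64 to -0.40, limma adjusted p = 6.59e-05), or 61.9% and 65.1% of control, with -0.06 log2 units between the knockdowns (95% interval -0.18 to 0.06, limma adjusted p = 0.38). The FPKM steps of CDKN1B imply a length of 9255 bases, against 2811 in GENCODE 29, so its level per length cannot be set firmly against other genes. The percent of control does not depend on the length, but the difference in log2(FPKM + 1) does, and with a pseudocount of 0.1 it was -0.68 after siSIRT6.

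The sum of CDKN1A and CDKN1B was 138 ± 3.88 FPKM in control, 57.4 ± 0.903 in siSIRT6 and 60.1 ± 2.45 in siKDM5C cells (SD, n = 3 each). Per summed D cyclin FPKM this gave 0.638 ± 0.0646 in control, 0.937 ± 0.0101 in siSIRT6 and 1.30 ± 0.0714 in siKDM5C cells (SD, n = 3 each). Both sums carry the uncertain length of CDKN1B.

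The promoters of the inhibitors that fell in both knockdowns and of CDK4 are printed here from RefSeq (GRCh38.p14) to show where they hold a known motif. Of the 10 genes, 8 matched the table, with 12 entries, and each line gives the 250 bases before the annotated start, 5′ to 3′, with the motif in capitals: GGGCGG, the GC box, in CDKN1A and CDKN1B, and CACGTG, the E-box of MYC, USF and related factors, in CDK4.
CDKN1A promoter, chr6:36678464-36678713, plus strand: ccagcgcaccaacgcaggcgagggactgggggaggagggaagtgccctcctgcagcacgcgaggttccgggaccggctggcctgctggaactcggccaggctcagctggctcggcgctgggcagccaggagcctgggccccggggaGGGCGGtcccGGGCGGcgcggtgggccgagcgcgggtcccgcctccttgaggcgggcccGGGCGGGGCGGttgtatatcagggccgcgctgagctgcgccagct
CDKN1B promoter, chr12:12717118-12717367, plus strand: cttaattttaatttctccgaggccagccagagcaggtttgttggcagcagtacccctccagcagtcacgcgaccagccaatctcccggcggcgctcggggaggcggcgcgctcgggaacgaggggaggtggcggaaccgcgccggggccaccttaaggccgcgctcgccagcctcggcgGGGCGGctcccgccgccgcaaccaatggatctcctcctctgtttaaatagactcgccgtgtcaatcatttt
CDK4 promoter, chr12:57752311-57752560, minus strand: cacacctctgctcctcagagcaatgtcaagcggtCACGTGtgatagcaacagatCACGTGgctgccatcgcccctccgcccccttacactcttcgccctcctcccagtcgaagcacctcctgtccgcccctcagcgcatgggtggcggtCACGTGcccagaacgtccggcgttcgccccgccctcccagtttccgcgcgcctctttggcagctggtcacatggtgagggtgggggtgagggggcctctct

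CDKN1A held GGGCGG at 4 places, of which the last pair overlap, and CDKN1B at 1. CDK4 held CACGTG at 3 places, and its 3 GGGCGG matches lie on the other strand and are not capitalised. Searched on both strands, GGGCGG was present in 42.6% and CACGTG in 6.3% of 35116 promoter windows of this length. The AP-1 motif TGANTCA was in 6.6% of windows, the E2F motif TTTNGCGC in 1.5% and TATAAA in 10.7%. CCND1 and CCND2 had no entry, so their promoters were not searched. The only RB1 entry, at chr13:48476200-48476449, starts within the gene, so the bases before the gene start at chr13:48303726 were not searched either. The 3 printed windows also lie within the GENCODE 29 spans of their genes. Those spans begin at chr6:36676460 (CDKN1A), chr12:12715058 (CDKN1B) and, on the minus strand, chr12:57756013 (CDK4). The printed bases thus precede RefSeq starts, and the bases before these outer starts were not searched. Among the windows searched, TGANTCA occurred once, in that RB1 entry, and the other 2 motifs did not occur. These are matches of letters in a window, and say nothing of binding.

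CDKN2A, which encodes p16 and ARF, was at 0 in 8 of 9 libraries, and control replicate 3 had 1 read (0.0138 FPKM). Counts of 0 at these depths allow up to 0.0284 to 0.0420 FPKM per library (3 reads over the length used), from counting error alone. CDKN2B had no identifier in the files, in which each of the 36753 identifiers has a value above 0 in at least 1 library. The neighbour MTAP, the methylthioadenosine phosphorylase gene often lost with CDKN2A, read 0.780 ± 0.12 FPKM in control, 0.790 ± 0.031 in siSIRT6 and 0.779 ± 0.15 in siKDM5C cells (SD, n = 3 each). A gene model that spans the locus, AL359922.1 at chr9:21802636-22032986, read 17.9, 18.3 and 17.9 FPKM in control, siSIRT6 and siKDM5C cells. It shares 0 exon bases with CDKN2A and CDKN2B, so its level is no reading of CDKN2A. With MTAP it shares 460 exon bases on the same strand. Its reads per library (340 to 642) went up and down with those of MTAP (173 to 322). Reads of the shared bases cannot be assigned to one gene, so the MTAP values may not be a reading of MTAP alone. Of 10 genes listed around CDKN2A in 9p21, 9 had an identifier and 3 were tested, of which after siSIRT6 2 rose and after siKDM5C 1 rose, against 23.9% and 25.6% of all tested genes called higher. FOCAD, a focal adhesion gene near this locus, rose from 4.53 ± 0.295 to 6.57 ± 0.198 FPKM after siSIRT6 (limma adjusted p = 0.000308) and to 5.99 ± 0.306 after siKDM5C (limma adjusted p = 0.00151, SD, n = 3 each).

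RB1, the pocket protein that holds E2F factors, did not pass the test in any comparison. It read 10.2, 9.75 and 7.81 FPKM in control, 8.93, 8.40 and 8.42 in siSIRT6, and 8.63, 11.5 and 8.10 in siKDM5C libraries. All 3 groups overlapped. The log2 difference was -0.09 after siSIRT6 (95% interval -0.38 to 0.20, limma adjusted p = 0.589), 0.02 after siKDM5C (95% interval -0.28 to 0.31, limma adjusted p = 0.929) and -0.10 between the knockdowns (95% interval -0.40 to 0.19, limma adjusted p = 0.548). The intervals are wider than those of CCND3, as RB1 varied more within groups. The sign of the siKDM5C difference turned without control replicate 3 (-0.09) or siKDM5C replicate 2 (-0.12), with neither value past the threshold.

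A match of letters in the annotated 3′ UTR is given next, because siRNAs can lower transcripts that pair with their seed. Among 15833 heptamers ranked over 11295 genes by how low the genes holding them were, ACTTGTT came lowest after siSIRT6 and AGGTTTA after siKDM5C. The heptamers were picked on these values. In the longest annotated UTR, 16.4% of the genes held ACTTGTT, and 39.7% of these fell after siSIRT6 against 26.7% without it. After siKDM5C the shares were 34.0% and 27.8%. For AGGTTTA, held by 11.2%, 41.3% fell after siKDM5C against 27.2% without it. After siSIRT6 the shares were 31.1% and 28.6%. The ranking allowed for UTR length, but these shares do not. The UTR of CCND1 held the siSIRT6 heptamer at 2 places and the siKDM5C heptamer at 1. That of CCND3 held only the siKDM5C heptamer, at 1 place. That of CDK6 held them at 4 places and 1 place, and those of CDK4, CDKN1A, CDKN1B, RB1 and LTO1 held neither. These UTRs differ in length, and a longer one has more room for a match. They had 10219 bases in CDK6, 3192 in CCND1, 1956 in LTO1 and 1819 in RB1. Those of CDKN1A, CDKN1B, CDK4 and CCND3 had 1539, 1344, 1022 and 1007 bases. Whether the heptamers match the siRNAs used cannot be read from the labels, and the part of these matches in the changes was not tested. CDK6 is shown because it holds the most and moved in opposite directions, with the heptamer in capitals on the strand of the transcript (GRCh38, GENCODE 29).
CDK6 site, chr7:92614375-92614403, minus strand: atgctgaatttACTTGTTgtaagtctatt
CDK6 site, chr7:92609969-92609997, minus strand: tctttcctagcACTTGTTttttgggatga
CDK6 site, chr7:92609913-92609941, minus strand: ttcaatattttACTTGTTacctaggttct
CDK6 site, chr7:92606603-92606631, minus strand: ttggaaatttgACTTGTTagtttctgtgt
CDK6 site, chr7:92614283-92614311, minus strand: ttacttgctatAGGTTTAgggagtgtacc

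The genes closest in pattern to each tested member were sought over the 9 libraries on log2(FPKM + 1), among 7445 tested genes with a mean of at least 5 FPKM, as a description with no test. For CCND1, ICAM4-AS1 and the adhesion receptor gene ICAM1 (Pearson r = 0.999 each) came first, followed by MAP2K1 (r = 0.995). ICAM1 went from 633 FPKM in control to 150.5 and 102.1. CDKN1A was closest to TMEM14B (r = 0.997), PLAU (r = 0.997) and TRAPPC14 (r = 0.996), and CDKN1B to BUB3 (r = 0.995), COPS7B (r = 0.992) and RNF19B (r = 0.988). CDK4 was closest to PIH1D1 (r = 0.993), and CDK6 to LUZP1 (r = 0.992). CCND3 (AGTRAP, r = 0.955) and RB1 (BBX, r = 0.966) had lower values. The 9 points are libraries of 3 groups, so differences between group means enter every r.

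Downstream of RB1, most listed E2F target genes of S phase fell after siSIRT6, and more of them rose than fell after siKDM5C. Of 24 such genes, 17 fell and none rose after siSIRT6 (7 not passed), while after siKDM5C 11 rose, 1 fell and 12 did not pass, against 26.9% lower and 25.6% higher over all tested genes. The median log2 difference was -0.36 and 0.21. TYMS, thymidylate synthase, fell from 36.4 ± 1.37 to 23.4 ± 0.444 FPKM after siSIRT6 (limma adjusted p = 2.15e-05) and TK1, thymidine kinase, from 26.5 to 13.1. DTL, the substrate receptor of a CUL4 ubiquitin ligase, rose from 6.50 ± 0.326 to 14.8 ± 1.66 FPKM after siKDM5C (limma adjusted p = 1.27e-05) and RRM2, a ribonucleotide reductase subunit, from 7.84 to 13.3. UHRF1, a factor in DNA methylation upkeep, fell in both, from 10.3 FPKM to 7.66 and 7.52. Between the knockdowns 22 of 24 were lower in siSIRT6 cells, against 21.3% of all tested genes. The list was assembled with results of these data known.

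**Figure D4:**
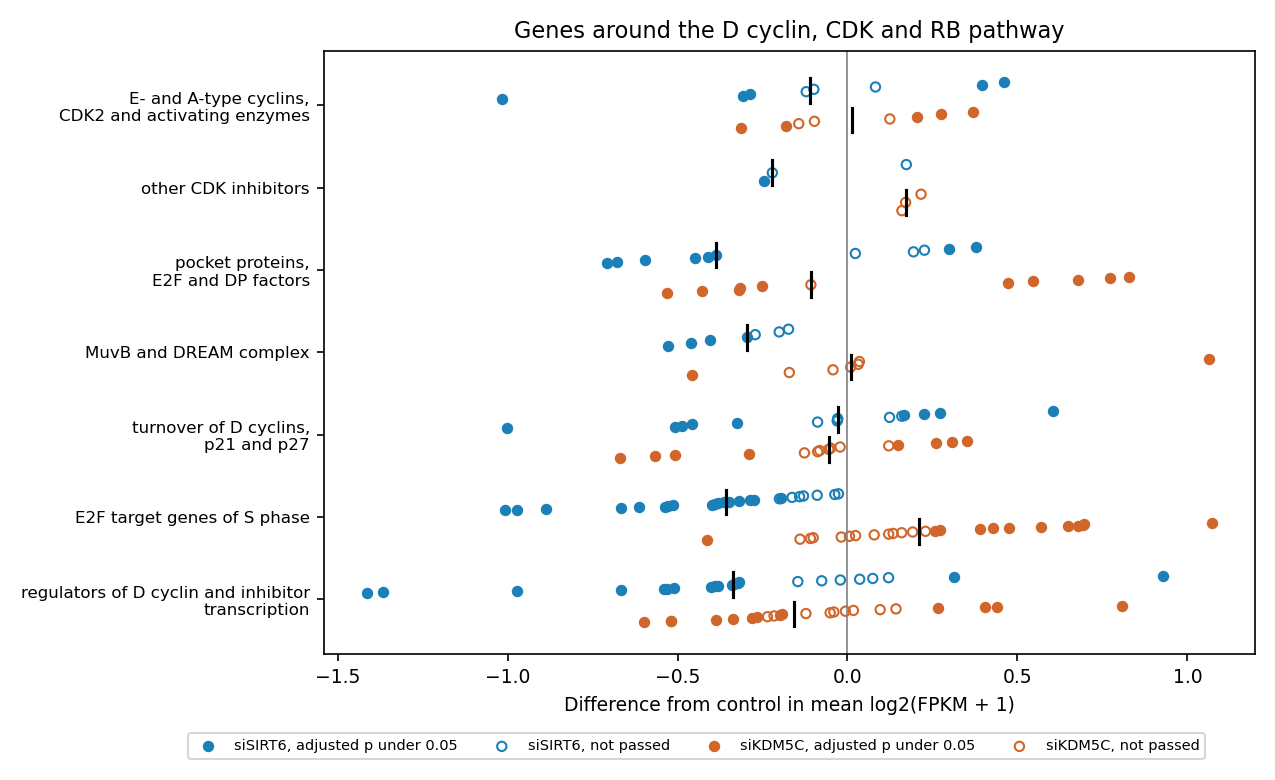
Difference of mean log2(FPKM + 1) from control for the tested genes of 7 lists, with siSIRT6 above siKDM5C in each row, filled points past the threshold and a bar at the median. The E2F targets lie below 0 after siSIRT6 and mostly above it after siKDM5C.

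Of the 12 pocket proteins, E2F and DP factors, 11 were tested, and 6 fell and 2 rose after siSIRT6, while 5 fell and 5 rose after siKDM5C. Over all tested genes, 26.9% were lower and 23.9% higher after siSIRT6, and 25.9% and 25.6% after siKDM5C, and the lists that follow are set against the same shares. The list had medians of -0.39 and -0.11 log2 units. E2F1 rose from 5.18 ± 0.346 to 7.02 ± 0.117 and 9.61 ± 1.49 FPKM, and its partner gene TFDP1 fell to 13.2 and rose to 30.1 from 18.4 FPKM. E2F3 fell from 14.5 FPKM to 8.68 and 9.72. Of 8 tested E- and A-type cyclins, CDK2 and activating enzymes, 3 fell and 2 rose after siSIRT6, and 2 fell and 3 rose after siKDM5C, with medians of -0.11 and 0.01. CCNA2 (cyclin A2) fell from 20.1 ± 1.8 to 9.40 ± 0.224 and 16.01 ± 1.98 FPKM, and CCNE1 (cyclin E1) rose from 7.82 to 10.6 FPKM after siSIRT6 and fell to 6.77 after siKDM5C. Of 7 MuvB and DREAM complex genes, 4 fell after siSIRT6 and 1 fell and 1 rose after siKDM5C, with medians of -0.30 and 0.01, so the siKDM5C counts were below those shares. MYBL2 fell from 22.6 ± 0.146 to 18.2 ± 0.64 FPKM after siSIRT6 and rose to 48.4 ± 3.1 after siKDM5C (SD, n = 3 each). Of 3 further CDK inhibitors, only CDKN2C (p18) passed against control, with 6.91 FPKM in control and 5.66 after siSIRT6 (limma adjusted p = 0.0389). Between the knockdowns 2 of the 3 passed, and both CDKN2C and CDKN2D (p19) were lower in siSIRT6 cells.

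Among 15 genes for the turnover of D cyclins, p21 and p27, 5 fell and 4 rose after siSIRT6, and 4 fell and 4 rose after siKDM5C, near the shares over all tested genes (26.9% lower and 23.9% higher, then 25.9% and 25.6%), with medians of -0.03 and -0.05. CKS1B, the cofactor of the p27 ubiquitin ligase, fell from 44.2 ± 4.76 to 21.5 ± 0.771 FPKM after siSIRT6 (limma adjusted p = 0.000114), and SKP2, the F-box protein of that ligase, from 1.80 to 0.966. CUL4A, a cullin of ligases for p21 and p27, was at 14.5 ± 0.438 FPKM in control, 16.4 ± 0.438 after siSIRT6 and 8.74 ± 0.301 after siKDM5C. Of 22 tested regulators of D cyclin and inhibitor transcription, 14 fell and 2 rose after siSIRT6 (26.9% and 23.9% of all tested genes), and 9 fell and 4 rose after siKDM5C (25.9% and 25.6%), with medians of -0.34 and -0.16. EGR1, an immediate early factor, fell from 4.96 ± 0.58 to 1.30 ± 0.112 FPKM after siSIRT6, and CTNNB1, the beta-catenin gene, from 23.4 to 14.4. NFKB1 fell in both, from 11.7 FPKM to 5.44 and 7.35, and STAT3 rose in both, from 19.8 FPKM to 38.6 and 24.0. MYC rose from 18.6 ± 1.26 to 33.4 ± 1.05 FPKM after siKDM5C (limma adjusted p = 1.59e-05) and was at 19.7 ± 0.834 after siSIRT6 (limma adjusted p = 0.334, SD, n = 3 each).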

How the data were processed

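The expression files hold 1 FPKM value per gene and library as deposited by the authors, with no filter or pooling stated. Trimmomatic, HISAT2, Cufflinks, HTSeq and the hg38 build are named in the submitters' processing notes, without versions or order, and the strand setting and the annotation used for counting are unstated. Libraries were stranded mRNA libraries of total RNA, per the labels' protocols. Symbols came from a gene name table (36659 of 36753 identifiers) and coordinates from GENCODE 29.

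Values were tested as log2(FPKM + 1), keeping genes at 1 FPKM or more in 3 or more libraries, with limma 3.58.1 in R 4.3.3 (trended moderation, all 9 libraries in 1 fit), and p-values were adjusted by Benjamini-Hochberg over all 16135 genes, at 0.05. Differences on this scale understate changes of low genes. Whole reads at a tolerance of 0.01 explain 58.93% of genes at their annotated length and 99.99% when any length was allowed. The second share says little for genes with few reads, which some length readily fits. Depth was taken from the FPKM steps. Recovered reads summed slightly above that depth in every library (18304781 against 18201413 in control replicate 1). Replicate libraries differed beyond sampling noise, with a mean chi-square per gene of 1.95 to 16.4, so each counted as 1 sample. By group it was 1.95 to 3.06 in siSIRT6, 2.46 to 10.82 in control and 11.51 to 16.4 in siKDM5C pairs. The fit gave each gene 1 spread for all 3 groups, so its intervals and p-values do not reflect this difference. The procedure was also run on simulated data with 1 spread setting for all 3 groups and no deviations shared between libraries. These data differ in both, so that run does not show the error rates here.

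Named genes are the 10 members, the 2 targets, up to 4 genes of smallest adjusted p per list and comparison, genes against the majority of their list, overlapping or flanking genes, and the 3 genes of highest Pearson r per tested member. The members and lists were chosen with earlier results of these data known. Alternatives changed the pseudocount, filter, scaling, moderation, gene set, count model, block and libraries, 1 at a time, except that 1 added after seeing the data changed the count model and the filter together.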

Additional observations from a re-analysis of the deposited data

Results flagged for a closer look

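The 13 genes below, among the members and listed genes, moved past the threshold in opposite directions in siSIRT6 and siKDM5C cells. Neither knockdown overlapped control for them, and the difference between the 2 knockdowns was itself tested in the same limma fit. Over all tested genes, 50.8% were called after siSIRT6 and 51.5% after siKDM5C, in either direction. The share of all tested genes that meet the same rule was not counted, so 13 cannot be called many or few. The lists were chosen with earlier results of these data known. CDK6 was lower in siSIRT6 than in siKDM5C cells by -0.99 log2 units (limma adjusted p = 0.000801), the only member to do so. CDK2, the kinase of cyclins E and A, differed by -0.56 and its activating phosphatase CDC25A by -0.51, while CCNE1 differed by 0.58 in the other direction. TFDP1 differed by -1.13, MYBL2 by -1.36 and CUL4A by 0.84. Among the replication genes, MCM4 differed by -0.61, MCM5 by -0.64, CDC6 by -0.92, ORC1 by -1.01, RRM2 by -1.01 and CDC45 by -1.09. The limma adjusted p-values of these 13 differences lie between 1.75e-06 (MYBL2) and 0.000801 (CDK6). CCNE1 and CUL4A were higher in siSIRT6 cells, and the other 11 were lower there. MYEOV also passed in opposite directions, with a difference of -0.55 between the knockdowns (limma adjusted p = 0.00153), but its siKDM5C and control libraries overlapped.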

How the results depend on the processing

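Of 420 values from 21 member differences under 20 alternatives each, 399 kept their direction and side of the threshold, 16 lost the call, 1 gained it and 4 changed sign. CCND1, CDKN1A and CDKN1B kept their calls against control in all 20, with differences of -2.11 to -2.01 and -2.58 to -2.48 log2 units (CCND1), -1.31 to -1.25 and -1.25 to -1.19 (CDKN1A), and -0.69 to -0.55 and -0.62 to -0.50 (CDKN1B) after siSIRT6 and siKDM5C. The calls lost were those of CDK6 after siSIRT6 (adjusted p from 0.00626 to 0.0833) and of CDK4 between the knockdowns (0.00401 to 0.12). The call gained was that of CCND3 after siKDM5C. The signs that turned were all of differences under the threshold: CCND3 after siSIRT6 with median-of-ratios scaling (0.0069, adjusted p = 0.921), RB1 after siKDM5C without control replicate 3 (-0.089) or siKDM5C replicate 2 (-0.12), and RB1 between the knockdowns without siKDM5C replicate 2 (0.033). Leaving out 1 library moved RB1 between -0.12 and 0.105 after siKDM5C and between -0.193 and 0.033 between the knockdowns. With a minimum of 5 FPKM, 9446 genes were tested and 5367 were called after siSIRT6 and 5418 after siKDM5C, fewer because fewer were tested. Member counts stayed at 4 to 5, 4 to 5 and 2 to 4. Without single replicates the counts of all genes ran from 6768 to 8787 after siSIRT6, 6977 to 8401 after siKDM5C and 4883 to 6945 between the knockdowns.

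With the replicate number as a block, 8130, 8245 and 6386 genes were called in the siSIRT6, siKDM5C and direct comparisons, against 8194, 8308 and 6442 without it, and no member changed its call. Deviations of same-numbered libraries correlated at -0.229 to 0.252, with 1 of 9 pairs over 0.1, so the numbers do not pair the libraries. Some libraries of different numbers shared deviations more strongly. Control replicate 3 correlated at 0.426 with siKDM5C replicate 1 and at -0.353 with siKDM5C replicate 2. A block on the replicate number does not cover such sharing. Depth limits CCND2 and CDKN2A, the FPKM values do not carry which strand was counted, and 3 libraries per group limit the precision of CDK6 and RB1, which vary most within groups.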
